A study of Mus musculus with 26 samples.

Results

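RNA of mouse embryonic stem (ES) cells on day 0 was compared with RNA of the motor neuron progenitors that the same line had formed by day 4. Both were single libraries, 2 of the 26 samples in the series, taken by their labels and day. The features compared were genes that reached 1 FPKM on at least 1 of the 2 days, 11482 of the 37450 in the table. FPKM, a fragment count scaled by library size and the length of the gene, measures the level of a transcript.

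The series followed ES cells as they became spinal motor neurons in culture, with RNA, chromatin and transcription factor maps on successive days. The labels give both libraries to the HBG3 line, mouse ES cells known for a GFP reporter of motor neurons, while a second label field names Ainv15 cells. Day 0 cells carry no listed addition. Day 4 cells had been exposed since day 2 to 1 uM retinoic acid, the signal that gives neural cells a caudal spinal identity, and to 0.25 uM SAG, an agonist that switches on Hedgehog signalling and ventralises them. No induced transgene and no Notch inhibitor is labelled for either library. RNA was TRIzol-extracted, rRNA-depleted total RNA, so transcripts without a poly(A) tail, such as those of histone genes, were also captured.

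ES cells are kept pluripotent by LIF and BMP signals and a dense network of transcription factors, and they carry an epithelial surface, a glycolytic metabolism and a partly unlocked germline programme. Neural progenitors of the ventral spinal cord divide as an elongated neuroepithelium, read retinoic acid, Hedgehog, Wnt and FGF through their own receptors, and place neural adhesion and guidance molecules on the surface. The account below runs through these functions in turn, from metabolism to signalling, surface, chromatin and transcription factors.

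On the log2(FPKM + 1) scale, day 4 exceeded day 0 by 2-fold or more in 2219 of 11482 genes (19.3%), day 0 exceeded day 4 in 1366 (11.9%), and 7897 lay within 2-fold. At 4-fold these shares were 4.28% and 3.71%. There was 1 library per day, so no difference has a replicate check and none was tested. Below, "higher" and "lower" mean these 2-fold calls, and every list of genes is to be read against 19.3% and 11.9% and against the median log2 difference of 0.23 over all measured genes. Genes at 1 FPKM or more in both libraries (9127) had a median day 4 to day 0 ratio of 1.18, a shift of 0.24 in log2. With day 4 divided by that ratio, 1583 genes (13.8%) were higher and 1674 (14.6%) lower, so that the share of higher genes among those that differed went from 61.9% to 48.6%. Counts after this rescaling are given where they differ much. Of the 11482, 1337 reached 1 FPKM on day 4 only and 1018 on day 0 only, and these could enter in just 1 direction. A value listed as exactly 0 can be a failed estimate, so it is given as listed and without a fold.

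Markers of the labelled cell types were where the labels put them: 15 of 16 ES cell markers were lower and 14 of 14 measured progenitor markers were higher on day 4. Summed over their measured genes, ES markers went from 1494 to 61.4 FPKM and progenitor markers from 51.9 to 545. Single genes made up most of the smaller sums: Sox2, shared by both stages, had 57.6 of the 61.4 FPKM, and Vim 42.7 of the 51.9. Markers of fibroblasts and feeder cells summed to 44.2 FPKM on day 0 and 13.2 on day 4, postmitotic neuron markers to 64.5 and 120.3, and floor plate and V3 markers to 15.6 and 53.3. Much of the neuron sum was Tubb2b (29.6 and 72.2 FPKM), and much of the floor plate sum was Ntn1 (15.2 and 30.9 FPKM). Only 1 of the endoderm, 2 of the mesoderm, endothelium and blood, and 2 of the neural crest markers reached 1 FPKM in either library. In bulk RNA, fewer cells of a type and less RNA per cell cannot be told apart. The sources used here give no read depth for the libraries.

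Retinoic acid acts through nuclear receptors (Rar with Rxr) that bind a direct repeat of a short motif near their targets. A strict form of this repeat, GTTCA followed after 6 bases of any kind by GTTCA, read on both strands and with 1 base ahead of it, was searched in RefSeq promoters of build GRCm38.p6 (250 bases before to 50 after each start). At any of their listed starts, it was found in 24 of 27025 genes (0.0888%), 5 of which were measured. Rarb, a retinoic acid receptor, and Cyp26a1, the enzyme that degrades retinoic acid, were 2 of them and are shown, chosen after values were seen, because both were higher by far more than 2-fold. The 150 bases before their starts are printed 5′ to 3′ on the gene's strand, with the repeat and the base ahead of it in capitals (Rarb chr14:16575477-16575626, minus strand; Cyp26a1 chr19:37697658-37697807, plus strand).
Rarb: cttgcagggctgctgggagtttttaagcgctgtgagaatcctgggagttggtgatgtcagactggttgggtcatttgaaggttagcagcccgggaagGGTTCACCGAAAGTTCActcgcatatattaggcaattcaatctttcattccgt
Cyp26a1: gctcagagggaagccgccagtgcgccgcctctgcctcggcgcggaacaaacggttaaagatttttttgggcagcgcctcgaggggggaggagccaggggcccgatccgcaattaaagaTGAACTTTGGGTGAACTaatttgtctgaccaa
The repeat began 53 bases before the Rarb start and 32 before that of Cyp26a1, where it lies on the opposite strand. Rarb had 0.0916 FPKM on day 0 and 19.5 FPKM on day 4 (log2 difference 4.23), and Cyp26a1 had 0.106 FPKM on day 0 and 37.7 FPKM on day 4 (log2 difference 5.13). The other 3 measured genes with the repeat lay within 2-fold, with log2 differences of -0.69 for Blvrb, -0.28 for Dmd and 0.91 for Lcorl, so the repeat in a promoter did not go with a 2-fold difference in each case. A match of letters is not a bound site.

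Around these sequences, 7 of 10 measured genes of retinoid and sterol handling were higher (median log2 difference 2.73). Stra6, the receptor that imports retinol, had 0.191 FPKM on day 0 and 2.51 FPKM on day 4 (log2 difference 1.56). Crabp1, which binds retinoic acid in the cell, had 7.17 FPKM on day 0 and 64.3 FPKM on day 4 (log2 difference 3.00). Dhrs3, which turns retinal back to retinol, had 0.273 and 7.13 FPKM and Cyp26b1, a second degrading enzyme, 0.0598 and 6.31 FPKM, so these genes of import, storage and removal were all higher. Apolipoproteins went the other way: Apoe had 112 FPKM on day 0 and 10.7 FPKM on day 4 (log2 difference -3.27), and its neighbour Apoc1 had 13.3 FPKM on day 0 and a listed value of 0 on day 4. Among the receptors, Rarb and its partner Rxra (1.55 and 10.3 FPKM) were higher, Rarg was lower (10.3 and 0.519 FPKM), and Rara lay within 2-fold (5.41 and 7.15 FPKM).

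**Figure D1:**
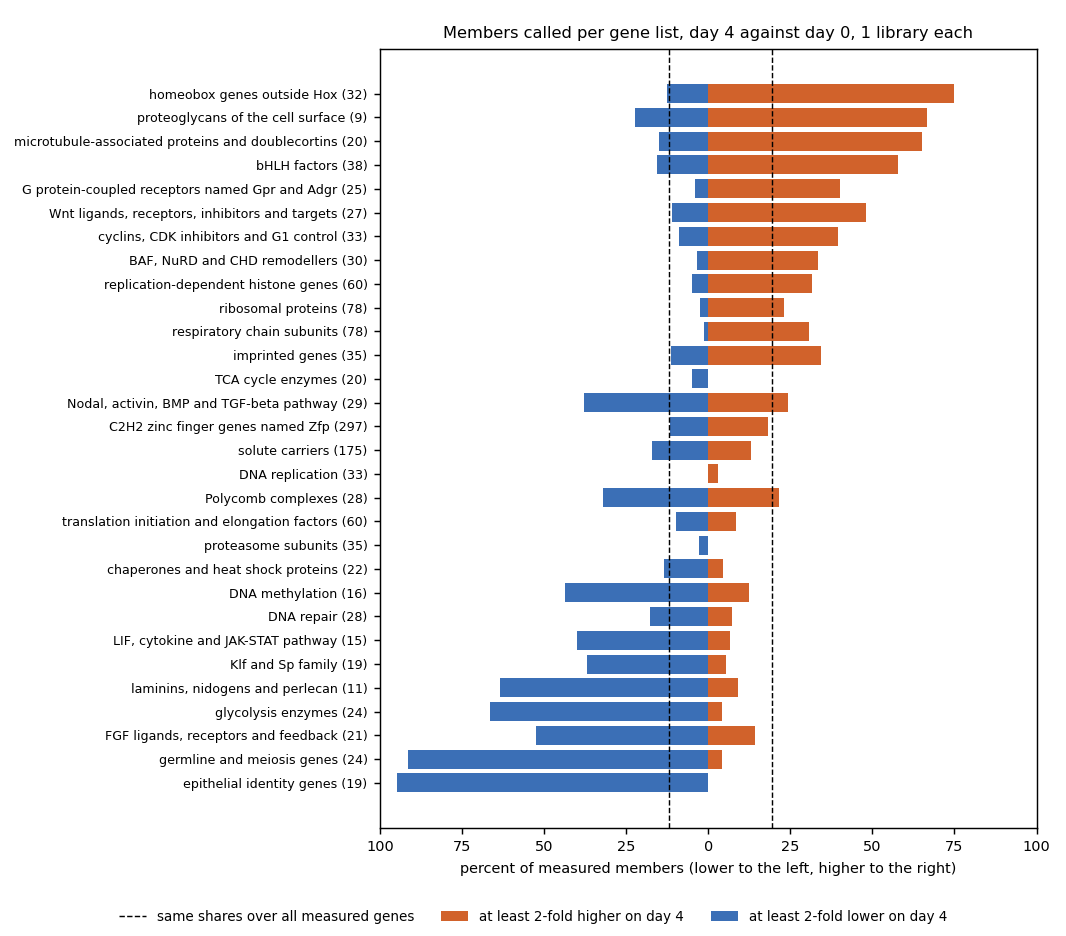
Percent of the measured members of 30 gene lists that were at least 2-fold higher (right, orange) or lower (left, blue) on day 4, with the number measured in brackets and lists sorted by median log2 difference; dashed lines mark the shares over all measured genes, 19.3% and 11.9%. Homeobox genes outside Hox lie at the top, and glycolysis, FGF, germline and epithelial genes at the bottom.

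Glycolysis stood apart among the metabolic lists: 16 of 24 genes (66.7%) were lower on day 4 and 1 was higher (median log2 difference -1.12), and the same number were lower after rescaling. Summed over the 24 genes, the level was 2584 FPKM on day 0 and 1399 on day 4. Genes from uptake to export were among the lower ones, although Gpi1, Pgam1, Eno1 and Pkm2, enzymes of the middle and last steps, lay within 2-fold. Slc2a3, the high-affinity glucose transporter, had 401 FPKM on day 0 and 8.56 FPKM on day 4 (log2 difference -5.39), whereas the broadly expressed transporter Slc2a1 had 95.02 and 138 FPKM and lay within 2-fold. Glucose is trapped in the cell by hexokinase, and Hk2 had 55.4 FPKM on day 0 and 7.88 FPKM on day 4 (log2 difference -2.67). Hk1, the form of neurons, was lower too (5.31 and 1.88 FPKM). All 3 phosphofructokinase genes, which set the committed step, were lower, from a sum of 119 to 17.1 FPKM. Ldha, which makes lactate, had 277 FPKM on day 0 and 70.4 FPKM on day 4 (log2 difference -1.96), and Slc16a3, a lactate exporter, had 39.2 FPKM on day 0 and 7.41 FPKM on day 4 (log2 difference -2.26). Pdk1, a kinase that inhibits pyruvate dehydrogenase, had 52.99 FPKM on day 0 and 3.24 FPKM on day 4 (log2 difference -3.67). Gapdh was the exception, with 142 FPKM on day 0 and 326 FPKM on day 4 (log2 difference 1.19), and it has many near-identical pseudogenes that can share its reads; after rescaling it too lay within 2-fold (0.95).

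The letters ACGTG, the core of the element read by hypoxia-inducible factors and of other E-box-like sites, were in 47.8% of the 23 glycolysis promoters on either strand, against 19.7% of the promoters of all 27025 genes, taking the first listed start of each, and 26.7% of those of measured protein-coding genes. A share of this size was not particular to glycolysis. It was 43.5% of 23 promoters in the Polycomb list and 42.3% of 26 in the list of SR proteins and hnRNPs. In the TCA cycle list it was 29.4% of 17, and in the respiratory chain list 26.1% of 69. The motif was added after values were seen, and its presence was read here only as a description. Over the whole window it was in 7 of 15 lower genes, in 3 of 7 within 2-fold and in Gapdh, the higher one, so it did not separate them. Shown are 200 bases before the start of 4 lower genes picked because they hold it there, and of Gapdh, with ACGTG or its reverse complement CACGT in capitals (Ldha chr7:46845604-46845803, plus strand; Pgk1 chrX:106186900-106187099, plus strand; Hk2 chr6:82774455-82774654, minus strand; Slc16a3 chr11:120948867-120949066, plus strand; Gapdh chr6:125165774-125165973, minus strand).
Ldha: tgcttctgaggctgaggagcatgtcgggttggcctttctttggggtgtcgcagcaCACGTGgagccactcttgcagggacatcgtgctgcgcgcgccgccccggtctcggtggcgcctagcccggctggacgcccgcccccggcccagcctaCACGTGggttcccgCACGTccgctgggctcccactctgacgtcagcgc
Pgk1: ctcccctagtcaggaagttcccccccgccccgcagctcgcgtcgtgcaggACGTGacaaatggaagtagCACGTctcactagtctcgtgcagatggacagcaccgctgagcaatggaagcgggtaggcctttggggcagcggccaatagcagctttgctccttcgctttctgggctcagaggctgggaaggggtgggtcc
Hk2: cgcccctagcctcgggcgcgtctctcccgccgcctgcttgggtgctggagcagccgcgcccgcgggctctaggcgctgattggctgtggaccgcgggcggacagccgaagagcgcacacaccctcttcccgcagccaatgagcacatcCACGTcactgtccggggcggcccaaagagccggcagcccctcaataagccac
Slc16a3: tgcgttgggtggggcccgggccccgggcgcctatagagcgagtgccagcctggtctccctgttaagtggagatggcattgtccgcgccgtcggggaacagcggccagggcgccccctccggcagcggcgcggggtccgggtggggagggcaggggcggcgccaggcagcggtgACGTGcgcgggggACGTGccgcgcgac
Gapdh: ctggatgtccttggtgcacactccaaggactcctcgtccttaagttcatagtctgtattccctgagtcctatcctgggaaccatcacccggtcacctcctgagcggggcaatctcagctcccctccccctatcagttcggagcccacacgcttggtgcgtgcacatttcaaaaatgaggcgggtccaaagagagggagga
Matches in the 200 bases numbered 5 for Ldha, 2 for Pgk1, 1 for Hk2, 2 for Slc16a3 and 0 for Gapdh, whose match lies outside the bases shown; overlapping matches on both strands, as in CACGTG, count once for each strand.

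The TCA cycle did not follow glycolysis: 1 of 20 genes was lower and 0 were higher, with a median of 0.19 that became -0.04 after rescaling. The single lower gene was Idh3a, a subunit of isocitrate dehydrogenase, at 33.8 and 12.6 FPKM, while its partner subunit Idh3g had 16.6 and 30.0 FPKM. Pdha1, the entry enzyme that Pdk1 inhibits, had 64.0 and 32.5 FPKM (log2 difference -0.96), just short of the threshold. Subunits of the respiratory chain were higher more often than all genes: 24 of 78 (30.8%) were higher and 1 lower, with a median of 0.60 (19 higher and a median of 0.37 after rescaling). Complex I had 11 of 37 higher, complex IV 5 of 12 and ATP synthase 6 of 17. Uqcrq of complex III had 4.22 FPKM on day 0 and 41.2 FPKM on day 4 (log2 difference 3.01), Cox8a of complex IV 41.1 FPKM on day 0 and 181 FPKM on day 4 (log2 difference 2.11), and Ndufa5 of complex I 10.4 FPKM on day 0 and 49.0 FPKM on day 4 (log2 difference 2.13). Some core subunits lay within 2-fold but below their day 0 level. Atp5b, the catalytic subunit of ATP synthase, had 389.8 and 350.2 FPKM, against a median log2 difference of 0.63 for ATP synthase. Ndufs1 of complex I had 24.7 and 23.8 FPKM, against a median of 0.57. Uqcrc1 (57.2 and 40.0 FPKM) had the lowest difference of complex III, -0.51, against a median of 0.42. The muscle isoform Cox7a1 was the 1 lower gene (4.44 and 1.44 FPKM).

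Gene span went with these values. Over all measured genes, split into 5 equal bins by their span in the genome, the shortest bin had a median log2 difference of 0.46 and 25.9% higher genes, against 0.06 and 14.7% in the bin before the longest and 0.26 in the longest. Of the respiratory chain genes, 43 of 78 were in the shortest bin, with a median of 0.71 there, and the part of length in their difference was not tested. Mitochondrially encoded transcripts did not differ as a block: mt-Nd1 had 807 and 1539 FPKM and mt-Nd2 286 and 487 FPKM, while mt-Nd4 had 336 and 95.05 FPKM, mt-Nd5 717 and 116 FPKM and mt-Nd6 851 and 37.2 FPKM. The last pair overlaps on opposite strands, and reads of antisense genes may not have been told apart.

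**Figure D2:**
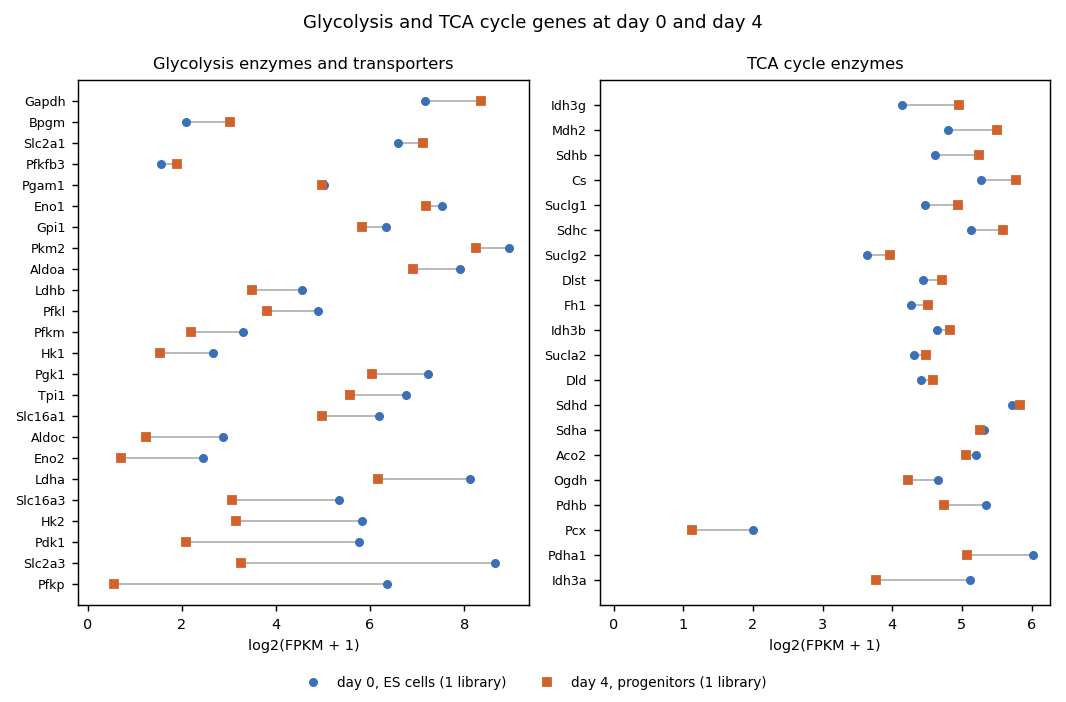
Levels of glycolysis and TCA cycle genes as log2(FPKM + 1), day 0 in blue circles and day 4 in orange squares, 1 library each, sorted by difference. On the left, 16 of 24 genes are at least 2-fold lower on day 4; on the right, Idh3a alone is.

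Anabolic pathways differed gene by gene. In serine, glycine and one-carbon metabolism, 4 of 20 genes were lower and 1 higher, with a median of 0.10 that became -0.14 after rescaling. The lower genes included Gldc (39.5 and 8.37 FPKM, -2.11 in log2) and Amt (28.3 and 7.41 FPKM, -1.80), subunits of the glycine cleavage system that feeds folate units. Genes of serine synthesis lay on the other side without reaching 2-fold: Phgdh had 28.3 and 52.7 FPKM and Psat1 76.0 and 139 FPKM. Purine synthesis had 3 lower genes of 20 in the nucleotide list, Gart (108 and 33.6 FPKM), Pfas (82.3 and 31.2 FPKM) and the salvage enzyme Hprt (55.4 and 21.8 FPKM), and none was higher. Of amino acid transport and the ATF4 stress response, 5 of 20 genes were higher and 3 lower. Atf4 itself had 39.3 and 85.6 FPKM and the glutathione-degrading Chac1 1.22 and 8.13 FPKM, and Atf5 was higher by 2.34 in log2, but Cth, the last enzyme of cysteine synthesis, had 28.8 FPKM on day 0 and 3.30 FPKM on day 4 (log2 difference -2.79).

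Lipid genes were mostly within 2-fold. Cholesterol synthesis had 3 of 22 higher and 1 lower (median 0.36; 1 and 1 after rescaling): Insig1, which restrains the pathway, had 41.1 and 20.0 FPKM. In the fatty acid list 5 of 20 were higher and 1 lower, with a median of 0.17 that became -0.06 after rescaling, with 3 higher and 3 lower. Fabp5, a fatty acid carrier, had 3.68 FPKM on day 0 and 36.8 FPKM on day 4 (log2 difference 3.01), and the desaturases Fads1 and Fads2 had 14.6 and 30.6 FPKM and 12.1 and 28.4 FPKM. The Fabp5 paralogue Fabp3 went the opposite way, with 29.4 FPKM on day 0 and 0.349 FPKM on day 4 (log2 difference -4.50). Elovl6, which lengthens palmitate, was lower (32.0 and 13.5 FPKM).

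Of 12 iron genes 3 were higher and 4 lower, and of 20 genes of glutathione, thioredoxin and peroxide removal 3 were higher and 2 lower. Tfrc, the transferrin receptor that brings iron in, had 120.4 FPKM on day 0 and 42.4 FPKM on day 4 (log2 difference -1.48). The Steap family genes Steap1, Steap2 and Steap3 were also lower, at 5.68 and 1.23 FPKM, 4.07 and 1.36 FPKM and 1.38 and 0.106 FPKM. The ferritin light chain gene Ftl1, which stores iron, had 283 FPKM on day 0 and 608 FPKM on day 4 (log2 difference 1.10); this call and those of the other 2 higher iron genes were lost after rescaling (0 higher and 5 lower of 12). Of the peroxide removal genes, Prdx2 was higher (51.2 and 169 FPKM, 1.70 in log2), a peroxiredoxin abundant in neurons, while Nqo1, a quinone reductase of the Nrf2 response, had 13.8 FPKM on day 0 and 0.90 FPKM on day 4 (log2 difference -2.96). Sat1, which degrades polyamines, had 22.2 FPKM on day 0 and 2.17 FPKM on day 4 (log2 difference -2.87), and the synthetic enzyme Odc1 had 219 and 227 FPKM.

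Translation genes held few 2-fold differences beyond the background. Of 78 ribosomal protein genes, 18 (23.1%) were higher and 2 lower, with a median of 0.62 (11 higher and a median of 0.37 after rescaling). The share of higher genes was thus near the 19.3% over all genes and below the 25.9% of the shortest genes. Small and large subunit genes had the same median, 0.62. Both lower genes were copies known from testis, Rpl10l (11.2 and 0.0898 FPKM) and Rpl39l (5.83 FPKM and 0 as listed). Rps29 had 235 FPKM on day 0 and 1004 FPKM on day 4 (log2 difference 2.09), while Rpl3 (342 and 289 FPKM) and Rps14 (516 and 403 FPKM) lay slightly below their day 0 level. Nearly all of these genes are short, 74 of 78 being in the shortest bin (median 0.62 there too), and they have processed pseudogenes that share reads, so single values are uncertain; the part of length was not tested.

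Genes that make and load ribosomes were lower about as often as all genes. Ribosome biogenesis had 0 of 25 higher and 3 lower (median -0.30; 0 and 5 after rescaling): Rrn3, an initiation factor of RNA polymerase I, had 67.3 FPKM on day 0 and 24.6 FPKM on day 4 (log2 difference -1.42), and Ncl, the nucleolar protein nucleolin, 59.1 and 27.9 FPKM. Of 60 initiation and elongation factors, 5 were higher and 6 lower (median -0.12), which became 3 and 14 after rescaling. Eif2s2, a subunit of the factor that brings the initiator tRNA, had 238 FPKM on day 0 and 60.2 FPKM on day 4 (log2 difference -1.97), and the helicase Eif4a2 389 FPKM on day 0 and 159 FPKM on day 4 (log2 difference -1.29). The opposite was seen for Eif4g3, a scaffold of the cap complex (1.20 and 12.3 FPKM), and Eif4ebp1, the mTOR-controlled repressor (29.3 and 67.9 FPKM). All 8 subunits of the Cct chaperonin, which folds actin and tubulin, had negative differences, from -0.98 for Cct4 to -0.27 for Cct5, without reaching 2-fold. Hsp90aa1, the inducible Hsp90, had 957 FPKM on day 0 and 252 FPKM on day 4 (log2 difference -1.92), and the small heat shock protein gene Hspb1 72.4 FPKM on day 0 and 2.80 FPKM on day 4 (log2 difference -4.27). Hsf1, their transcription factor, had 2.69 and 7.84 FPKM. Proteasome subunits lay within 2-fold with 1 exception among 35, the testis-type subunit Psma8 (6.36 and 0.0854 FPKM).

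Insulin and mTOR pathway genes upstream of translation held 6 higher and 1 lower of 20. Akt1, a kinase that relays insulin signals, had 4.50 FPKM on day 0 and 25.0 FPKM on day 4 (log2 difference 2.24), and the adaptor Irs2 had 1.47 FPKM on day 0 and 14.3 FPKM on day 4 (log2 difference 2.63). Deptor, an mTOR inhibitor, was lower (4.52 and 0.776 FPKM).

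In FGF signalling, feedback genes were lower and receptor genes higher. Of 21 measured genes 11 were lower (52.4%) and 3 higher, and the higher ones were all receptor genes. Fgf4, the autocrine ligand of ES cells, had 31.6 FPKM on day 0 and a listed value of 0 on day 4. Fgfr2 had 0.662 FPKM on day 0 and 30.7 FPKM on day 4 (log2 difference 4.25), Fgfr3 0.532 FPKM on day 0 and 12.4 FPKM on day 4 (log2 difference 3.13) and the decoy-like Fgfrl1 0.863 FPKM on day 0 and 6.67 FPKM on day 4 (log2 difference 2.04). Fgfr1 fills more than 1 row in the table and is left out. Among the negative feedback genes, which the pathway induces, Spry4 had 17.5 FPKM on day 0 and 0.0589 FPKM on day 4 (log2 difference -4.12), Spry2 20.8 and 0.503 FPKM and the phosphatase Dusp6 18.0 and 2.31 FPKM. The Ets factors that FGF induces were lower as well, Etv5 with 63.1 FPKM on day 0 and 0.223 FPKM on day 4 (log2 difference -5.71) and Etv4 with 13.3 and 0.139 FPKM. Together, 5 of 9 Sprouty, Spred, Dusp and Il17rd genes were lower and 0 higher, with sums of 98.1 and 26.7 FPKM.

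The LIF pathway, which holds up pluripotency, and the Nodal pathway held lower genes among their ligands, receptors and targets. The LIF receptor gene Lifr had 8.49 FPKM on day 0 and 1.81 FPKM on day 4 (log2 difference -1.76), its transcription factor Stat3 9.47 FPKM on day 0 and 2.48 FPKM on day 4 (log2 difference -1.59), and the target Socs3 18.1 FPKM on day 0 and 1.96 FPKM on day 4 (log2 difference -2.69); 6 of 15 genes in the list were lower and 1, Jak2 (1.67 and 4.38 FPKM), higher. Nodal had 12.8 FPKM on day 0 and 0.0211 FPKM on day 4 (log2 difference -3.76), and its antagonists Lefty1 and Lefty2 had 23.7 and 0.0277 FPKM and 24.6 FPKM and 0 as listed. Bmp4 was likewise lower (8.42 and 0.16 FPKM). Some receptors and transducers of the same superfamily were higher: Smad3 had 1.95 FPKM on day 0 and 12.1 FPKM on day 4 (log2 difference 2.15), Tgfbr1 8.76 and 29.8 FPKM, Acvr2b 4.33 and 12.99 FPKM and Smad5 5.22 and 13.5 FPKM. Id3 and Id2, inhibitors of bHLH factors that BMP induces, had 7.32 and 44.2 FPKM and 3.39 and 14.2 FPKM. Across the 29 genes, 7 were higher and 11 lower, with a median of 0.19 that became -0.02 after rescaling.

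Wnt pathway genes went the other way, with 13 of 27 higher (48.1%) and 3 lower (median 0.90). Among the 8 Frizzled receptors 5 were higher, and their sum went from 30.1 to 112 FPKM. Fzd3, which also guides axons, had 3.32 FPKM on day 0 and 34.4 FPKM on day 4 (log2 difference 3.03), Fzd7 7.90 FPKM on day 0 and 44.7 FPKM on day 4 (log2 difference 2.36) and Fzd2 1.23 and 15.0 FPKM, whereas Fzd5 had 14.5 FPKM on day 0 and 1.11 FPKM on day 4 (log2 difference -2.87). The secreted inhibitor genes Sfrp2 and Sfrp1 were higher too: Sfrp2 had 0.522 FPKM on day 0 and 47.7 FPKM on day 4 (log2 difference 5.00) and Sfrp1 5.61 and 18.6 FPKM. Genes commonly used to read canonical Wnt output did not share this: Axin2 had 7.09 and 4.50 FPKM, within 2-fold, and Lef1 (2.31 and 0.176 FPKM) and Notum (2.99 and 0.214 FPKM) were lower. Axin1, a ubiquitous scaffold, was listed at 0 on day 0 and had 9.34 FPKM on day 4; an exact 0 in a gene of this kind can be a failed estimate.

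**Figure D3:**
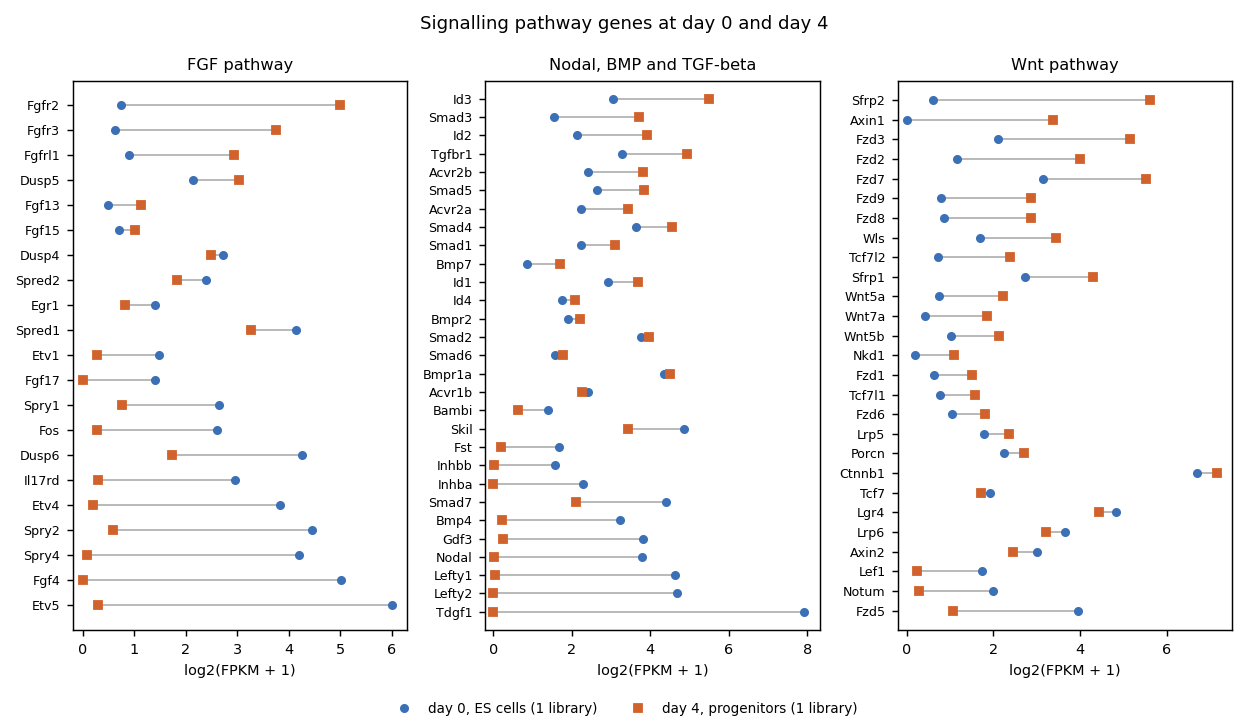
Levels of FGF, Nodal/BMP/TGF-beta and Wnt pathway genes as log2(FPKM + 1), day 0 in blue circles and day 4 in orange squares, 1 library each. FGF receptors sit at the top of the left panel and Etv5, Fgf4 and the Sprouty genes at the bottom, while most Frizzled genes are to the right of their day 0 level.

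Of 21 other growth factor genes 6 were higher and 6 lower (4 and 7 after rescaling). Erbb3 (6.02 and 0.182 FPKM, -2.57 in log2), Kit (11.2 and 1.55 FPKM, -2.26) and the EGF-type ligand Hbegf (6.31 and 0.68 FPKM, -2.12) were lower. Ptn, a heparin-binding factor of the neural tube, had 0.0505 FPKM on day 0 and 6.47 FPKM on day 4 (log2 difference 2.83), and Vegfb 1.23 FPKM on day 0 and 10.3 FPKM on day 4 (log2 difference 2.34). In the Hippo pathway, which controls organ size through Yap and Tead, Yap1 lay within 2-fold (21.3 and 22.0 FPKM) while its DNA-binding partners differed: Tead2, the neural form, had 13.8 FPKM on day 0 and 68.0 FPKM on day 4 (log2 difference 2.22), and Tead4, the form of early embryos, 4.73 FPKM on day 0 and 0.761 FPKM on day 4 (log2 difference -1.70). Genes of the primary cilium, the organelle through which Hedgehog signals run, counted 7 higher (20.0%) and 1 lower of 35, near the share of higher genes overall.

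Genes of the epithelial surface of ES cells were lower almost throughout. Of 19 epithelial identity genes 18 were lower and none higher (median -2.44), and their sum went from 297 to 23.7 FPKM. Among the 19, 10 were below 1 FPKM on day 4, so they entered through day 0 alone and could be called only lower. Epcam had 91.0 FPKM on day 0 and 3.19 FPKM on day 4 (log2 difference -4.46), the adherens junction cadherin Cdh1 42.4 FPKM on day 0 and 1.73 FPKM on day 4 (log2 difference -3.99), and the claudin Cldn6 19.6 FPKM on day 0 and 2.34 FPKM on day 4 (log2 difference -2.63). Grhl2, a transcription factor of epithelia, had 7.40 FPKM on day 0 and 0.0313 FPKM on day 4 (log2 difference -3.03), and the splicing factor Esrp1, which sets epithelial isoforms, 3.43 FPKM on day 0 and 0.257 FPKM on day 4 (log2 difference -1.82). The keratins Krt8 and Krt18 had 15.1 and 2.17 FPKM and 19.8 and 2.28 FPKM. Not every junction gene followed: the scaffold Tjp1, which neuroepithelia also use, had 17.03 and 13.5 FPKM, and desmoplakin (Dsp) 1.83 and 4.00 FPKM, both within 2-fold. The connexin gene Gja1 had 45.0 and 25.9 FPKM, also within 2-fold.

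Neural adhesion genes were more often higher. Cdh2, the N-cadherin of the neural tube, had 1.12 FPKM on day 0 and 27.1 FPKM on day 4 (log2 difference 3.72). Nrcam had 0.307 FPKM on day 0 and 13.4 FPKM on day 4 (log2 difference 3.46), Ncam1 1.15 FPKM on day 0 and 9.24 FPKM on day 4 (log2 difference 2.25) and the leucine-rich Lrrn1 0.19 FPKM on day 0 and 9.44 FPKM on day 4 (log2 difference 3.13); 6 of 13 neural adhesion genes were higher. Cntnap2 was the 1 lower gene of that list (4.87 and 0.417 FPKM). Cd24a, a small surface glycoprotein of neuroblasts, had 5.94 FPKM on day 0 and 116 FPKM on day 4 (log2 difference 4.07), and Cd9, a tetraspanin of ES cells, 150.2 FPKM on day 0 and 9.23 FPKM on day 4 (log2 difference -3.88).

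Matrix genes differed by family. Laminins, nidogens and perlecan, which build basement membranes, were lower in 7 of 11 cases: Lama3 had 8.18 FPKM on day 0 and 0.0288 FPKM on day 4 (log2 difference -3.16), Nid1 9.15 and 0.665 FPKM, Nid2 27.1 and 4.11 FPKM and Lamb1 20.1 and 4.20 FPKM. Lama1, the alpha chain of the neural tube's basement membrane, was the 1 higher gene, with 4.50 FPKM on day 0 and 19.5 FPKM on day 4 (log2 difference 1.90). Of the 18 other matrix proteins 10 were lower, led by Spp1 (151.5 and 2.11 FPKM, -5.62 in log2) and lysyl oxidase (Lox, 3.02 and 0.051 FPKM, -1.93), and 6 were higher, led by fibrillin 2 (Fbn2, 0.0875 and 8.91 FPKM, 3.19). Fibronectin (Fn1) had 25.6 FPKM on day 0 and 5.23 FPKM on day 4 (log2 difference -2.09). Feeder and fibroblast markers, among them Col1a1 (1.44 and 0.181 FPKM), Col1a2 (3.26 and 0.97 FPKM) and Postn (1.54 and 0.0361 FPKM), were lower in 6 of 9 measured cases, and their part in the matrix result was not tested. Of 14 collagens 3 were higher and 3 lower (1 and 3 after rescaling): Col2a1 (0.382 and 4.59 FPKM) and Col4a1 (4.69 and 11.4 FPKM) were higher, and Itgb8, the integrin chain of neural progenitors, had 0.0155 FPKM on day 0 and 14.3 FPKM on day 4 (log2 difference 3.92).

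Heparan sulfate proteoglycans, which present Wnt, FGF and Hedgehog ligands, differed member by member. Glypicans were higher in 4 of 5 cases: Gpc1 had 2.62 FPKM on day 0 and 17.8 FPKM on day 4 (log2 difference 2.38), Gpc3 4.62 and 17.7 FPKM, Gpc6 0.342 and 4.56 FPKM and Gpc2 0.801 and 6.48 FPKM, while Gpc4 was lower (2.91 and 0.683 FPKM). Of the syndecans, Sdc4 had 63.5 FPKM on day 0 and 6.40 FPKM on day 4 (log2 difference -3.13) and Sdc3 0.282 FPKM on day 0 and 2.86 FPKM on day 4 (log2 difference 1.59).

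Guidance ligands and receptors were more often higher than lower. Of 6 measured ephrin ligands 5 were higher, among them Efnb3 (0.239 and 6.26 FPKM, 2.55 in log2), Efna2 (0.776 and 6.44 FPKM, 2.07) and Efnb1 (0.647 and 5.75 FPKM, 2.03). Of 8 Eph receptors, 1 was higher, Ephb2 (3.21 and 16.4 FPKM), and 2 were lower, Epha2 (29.4 and 0.672 FPKM, -4.19 in log2) and Epha1 (1.73 FPKM and 0 as listed). Plexins, the semaphorin receptors, were higher in 5 of 6 cases, from 4.81 and 10.6 FPKM for Plxna1 to 0.215 and 10.99 FPKM for Plxna2. The semaphorins themselves were mixed, with 3 higher and 2 lower of 10 measured (median 0.61). Unc5a, a netrin receptor, had 0.102 FPKM on day 0 and 17.01 FPKM on day 4 (log2 difference 4.03), and its ligand Ntn1 15.2 and 30.9 FPKM. Ntn1 lay within 2-fold and is itself among the 5 measured floor plate and V3 markers. The other 4 were higher, and the part of these markers was not tested.

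Of 20 microtubule-associated protein genes, 13 were higher (65.0%) and 3 lower (median 1.39). All 4 Dpysl (Crmp) genes of growing axons were higher, Dpysl5 with 1.20 FPKM on day 0 and 21.8 FPKM on day 4 (log2 difference 3.38) and Dpysl2 with 14.1 and 45.7 FPKM. Mtap1b, the first axonal microtubule protein to appear, had 4.19 FPKM on day 0 and 30.9 FPKM on day 4 (log2 difference 2.62), and doublecortin (Dcx) 0.012 FPKM on day 0 and 2.67 FPKM on day 4 (log2 difference 1.86). Against these, tau (Mapt) had 3.26 and 0.907 FPKM. The 10 measured postmitotic neuron markers, which share Dcx with this list, were higher in 9 cases, and the part of neurons already present on day 4 was not tested. Of the intermediate filament genes, Lmna of the nuclear lamina was lower (12.8 and 1.75 FPKM, -2.33 in log2), like the keratins, and nestin (Nes, 2.40 and 33.4 FPKM, 3.34) and vimentin (Vim, 42.7 and 182 FPKM, 2.06) of neural progenitors were higher. Among tubulins, Tuba1a had 46.8 FPKM on day 0 and 152 FPKM on day 4 (log2 difference 1.68), Tuba1b 92.9 and 207 FPKM and Tubb2b 29.6 and 72.2 FPKM, and Tuba4a 18.6 FPKM on day 0 and 0.731 FPKM on day 4 (log2 difference -3.50). Of 26 actin cytoskeleton genes 5 were higher and 7 lower: Actb had 1191 and 684 FPKM, within 2-fold, the nonmuscle myosin Myh9 was lower (34.8 and 15.1 FPKM) and its paralogue Myh10 higher (9.65 and 35.1 FPKM). Cfl2 (6.15 and 39.7 FPKM, 2.51 in log2), an actin-severing cofilin, was higher.

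Chromatin genes differed by complex. In DNA methylation, 7 of 16 genes were lower (43.8%) and 2 higher. The de novo methyltransferases were lower, Dnmt3a with 24.7 FPKM on day 0 and 6.94 FPKM on day 4 (log2 difference -1.69), Dnmt3b with 33.0 FPKM on day 0 and 4.78 FPKM on day 4 (log2 difference -2.55) and their cofactor Dnmt3l with 55.5 FPKM on day 0 and 0.0408 FPKM on day 4 (log2 difference -5.76), while the maintenance enzyme Dnmt1 lay within 2-fold (30.5 and 30.2 FPKM). Tet enzymes, which oxidise methylcytosine, differed in direction: Tet1 had 31.0 FPKM on day 0 and 2.41 FPKM on day 4 (log2 difference -3.23) and Tet2 19.3 FPKM on day 0 and 2.19 FPKM on day 4 (log2 difference -2.67), and Tet3 had 0.385 FPKM on day 0 and 5.25 FPKM on day 4 (log2 difference 2.17). Zfp57, which keeps imprints methylated, had 73.0 FPKM on day 0 and 5.24 FPKM on day 4 (log2 difference -3.57).

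Polycomb complexes, which hold developmental genes silent, had subunits in both directions. PRC2 and its partners were lower in 5 of 9 cases (median -1.18): Jarid2 had 63.1 FPKM on day 0 and 6.52 FPKM on day 4 (log2 difference -3.09), Mtf2 109 FPKM on day 0 and 25.5 FPKM on day 4 (log2 difference -2.05), Suz12 84.7 FPKM on day 0 and 20.7 FPKM on day 4 (log2 difference -1.98) and Eed 50.7 FPKM on day 0 and 18.2 FPKM on day 4 (log2 difference -1.43). The catalytic subunit Ezh2 had 22.6 and 35.5 FPKM, within 2-fold, and its alternative Ezh1 was lower (9.36 and 3.57 FPKM). In PRC1, 6 of 19 were higher and 4 lower (5 and 5 after rescaling). Cbx7 (29.3 and 4.54 FPKM, -2.45 in log2) and Phc1 (29.8 and 6.24 FPKM, -2.09), the forms of ES cells, were lower. Bmi1 (1.04 and 14.7 FPKM, 2.94), Ring1 (1.44 and 12.5 FPKM, 2.47), Cbx2 (3.98 and 16.2 FPKM, 1.79) and Phc2 (4.63 and 20.1 FPKM, 1.91) were higher.

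Of 30 nucleosome remodellers 10 were higher and 1 lower (median 0.70). Some paralogue pairs of the BAF complex differed: Smarcc2 had 0.847 FPKM on day 0 and 5.53 FPKM on day 4 (log2 difference 1.82) against 24.8 and 20.3 FPKM for Smarcc1, Smarcd3 0.576 and 2.73 FPKM and Smarcd1 7.41 and 19.4 FPKM against 8.85 and 8.03 FPKM for Smarcd2. The DNA-binding subunits Arid1a and Arid1b had 4.601 and 15.0 FPKM and 2.28 and 10.2 FPKM. Chd7, the remodeller mutated in CHARGE syndrome, had 3.88 FPKM on day 0 and 21.2 FPKM on day 4 (log2 difference 2.19), and Mta1 of NuRD 5.93 FPKM on day 0 and 31.1 FPKM on day 4 (log2 difference 2.21), while Mta3 was lower (10.1 and 4.43 FPKM). Acetyltransferases were mixed: Myst4 (Kat6b) had 26.0 FPKM on day 0 and 2.50 FPKM on day 4 (log2 difference -2.95) and Kat2b 14.4 and 3.29 FPKM, and Crebbp 2.25 and 8.25 FPKM. Of the heterochromatin genes, Suv39h1 was higher (4.17 and 20.0 FPKM) and Kdm4c (23.3 and 5.23 FPKM) and Atrx (140.4 and 41.8 FPKM) lower.

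**Figure D4:**
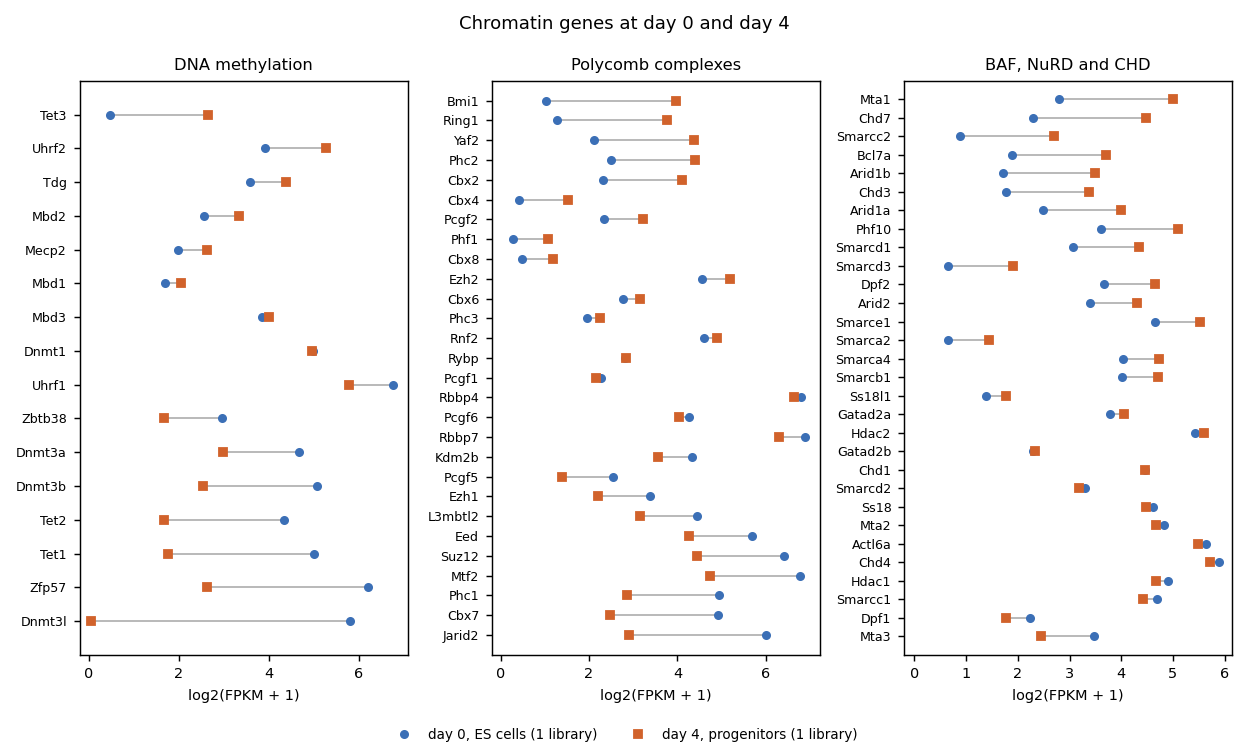
Levels of DNA methylation, Polycomb and remodeller genes as log2(FPKM + 1), day 0 in blue circles and day 4 in orange squares, 1 library each, sorted by difference. Dnmt3l, Zfp57 and Tet1 are at the foot of the left panel; in the middle panel Bmi1 and Ring1 are at the top and Jarid2 and Cbx7 at the foot.

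Histone genes were among the most abundant groups: the 60 measured replication-dependent histone genes, whose RNA ends in a stem-loop without poly(A), summed to 16874 FPKM on day 0 and 26925 on day 4. Of these 19 (31.7%) were higher and 3 lower, with a median of 0.68 (16 higher and a median of 0.44 after rescaling). H3 genes were higher in 5 of 11 cases, H2B genes in 7 of 15 and H4 genes in 2 of 13. These genes are near-identical copies that can share reads, and 57 of the 60 are among the shortest bin of genes, so values of single genes are uncertain and the part of length was not tested. The 3 lower genes were the germline forms Hist1h2ba (15.6 and 0.33 FPKM), Hist1h2aa (15.6 and 1.05 FPKM) and Hist1h1t (9.69 and 0.32 FPKM). Hist1h1e, a linker histone, had 205 FPKM on day 0 and 848 FPKM on day 4 (log2 difference 2.04). Replication-independent variants were higher in 6 of 12 cases, led by the linker histones H1fx (3.33 and 50.8 FPKM, 3.58 in log2) and H1f0 (8.44 and 44.2 FPKM) and by macroH2A, H2afy2 (1.65 and 21.1 FPKM) and H2afy (28.4 and 83.0 FPKM).

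Histone promoters are compact and carry CCAAT and TATA boxes. CCAAT was in 83.6% of 55 histone promoters with an entry and TATAAA in 61.8%, both strands, against 37.9% and 14.2% of all 27025. The 120 bases before the start are shown for 2 genes that were higher and for the lower Hist1h1t, with both motifs and their reverse complements in capitals (Hist1h1e chr13:23622559-23622678, minus strand; Hist1h2an chr13:21787249-21787368, minus strand; Hist1h1t chr13:23695691-23695810, plus strand).
Hist1h1e: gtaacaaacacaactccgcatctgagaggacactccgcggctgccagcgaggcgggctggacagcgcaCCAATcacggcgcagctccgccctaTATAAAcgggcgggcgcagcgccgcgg
Hist1h2an: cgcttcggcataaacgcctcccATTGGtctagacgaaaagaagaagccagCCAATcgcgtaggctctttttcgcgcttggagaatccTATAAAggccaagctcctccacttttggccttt
Hist1h1t: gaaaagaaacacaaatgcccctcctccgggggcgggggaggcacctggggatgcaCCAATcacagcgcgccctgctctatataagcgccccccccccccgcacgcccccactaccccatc
Hist1h1e and Hist1h2an (44.3 and 221 FPKM) hold both motifs in this window. Hist1h1t holds CCAAT and not the exact letters TATAAA. Its bases do include the similar TATATAAG, so the search does not show that it lacks a TATA box.

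Germline genes, many of which ES cells transcribe, were lower in 22 of 24 cases (median -2.09). Of the 24, 20 were below 1 FPKM on day 4, so they entered through day 0 alone and could be called only lower. Dppa2 and Dppa4, paired chromatin proteins of early embryos and germ cells, had 21.6 and 0.0434 FPKM and 31.2 and 0.552 FPKM. Tex19.1 had 32.2 FPKM on day 0 and 1.16 FPKM on day 4 (log2 difference -3.94) and Tdrd12, of the piRNA pathway, 21.7 FPKM on day 0 and 0.0751 FPKM on day 4 (log2 difference -4.40). Meiotic chromosome genes were lower from a smaller start, Hormad1 with 5.63 FPKM and 0 as listed and Sycp1 with 2.92 and 0.0179 FPKM, and Ddx4, the germ cell helicase Vasa, had 3.13 FPKM on day 0 and 0.304 FPKM on day 4 (log2 difference -1.66). The exception was Stra8, named for its response to retinoic acid and needed for entry into meiosis, with 1.15 FPKM on day 0 and 24.4 FPKM on day 4 (log2 difference 3.56). In the cohesin and condensin list 1 of 21 was higher and 3 lower: the meiotic subunits Stag3 (2.65 and 0.244 FPKM) and Smc1b (1.22 and 0.0987 FPKM) were lower and Rec8 higher (2.27 and 12.5 FPKM), while the mitotic subunits Rad21 (36.8 and 37.7 FPKM) and Smc1a (14.9 and 19.07 FPKM) lay within 2-fold.

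CACGTG and GGCGGGAA, motifs of the Mga/Max and E2f6 repressors of germline genes, were searched in the same window. Promoter entries existed for 18 of the 24 genes (75%), too few to give a share. The 150 bases before the start are shown for 3 genes that were lower and for Stra8, with either motif in capitals (Hormad1 chr3:95559527-95559676, plus strand; Ddx4 chr13:112652311-112652460, minus strand; Sycp1 chr3:102936101-102936250, minus strand; Stra8 chr6:34920798-34920947, plus strand).
Hormad1: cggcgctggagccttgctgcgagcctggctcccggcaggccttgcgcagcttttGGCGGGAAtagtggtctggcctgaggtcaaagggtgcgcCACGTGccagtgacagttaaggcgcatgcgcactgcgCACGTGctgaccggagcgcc
Ddx4: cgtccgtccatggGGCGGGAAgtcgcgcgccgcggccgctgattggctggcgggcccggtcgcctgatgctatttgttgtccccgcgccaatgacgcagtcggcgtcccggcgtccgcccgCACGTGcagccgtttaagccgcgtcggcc
Sycp1: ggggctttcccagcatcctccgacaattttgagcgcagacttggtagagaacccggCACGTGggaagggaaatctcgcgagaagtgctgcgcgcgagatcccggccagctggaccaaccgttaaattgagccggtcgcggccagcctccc
Stra8: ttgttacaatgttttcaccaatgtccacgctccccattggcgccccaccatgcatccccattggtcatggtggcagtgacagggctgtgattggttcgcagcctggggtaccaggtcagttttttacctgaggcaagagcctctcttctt
In these bases Hormad1 and Ddx4 hold both motifs, Sycp1 holds CACGTG, and Stra8 holds neither. The 3 lower genes were picked because they hold a motif: over the whole window 4 of 16 lower genes with an entry held CACGTG and 4 held GGCGGGAA, so each motif was absent from most of them. E2f6 had 5.09 and 21.5 FPKM, and its part in the levels of germline genes was not tested.

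Genes that silence or restrict retroelements were lower in 7 of 15 cases. Apobec3, a cytidine deaminase that mutates viral DNA, had 32.4 FPKM on day 0 and 2.27 FPKM on day 4 (log2 difference -3.35), the RNA helicase Mov10 9.15 and 1.40 FPKM and tetherin (Bst2) 10.2 and 2.61 FPKM. General cofactors lay within 2-fold: Trim28 had 217 and 176 FPKM and Setdb1 16.6 and 13.8 FPKM. Of the interferon list, 4 of 11 were lower and none higher, Ddx58 (RIG-I) with 11.1 FPKM on day 0 and 1.03 FPKM on day 4 (log2 difference -2.57) and Ifitm1 with 14.6 FPKM on day 0 and 1.26 FPKM on day 4 (log2 difference -2.79).

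Neighbouring genes shared these differences in a few places. Of 11159 measured genes that could be placed in genome order, 71 lay in 12 runs of at least 4 consecutive measured genes that were all lower, and 111 in 23 runs that were all higher. Some runs arise from these shares of genes alone, and their number was not worked out. Higher genes were also more frequent (19.3% against 11.9%), so the 2 counts of runs cannot be compared directly. The longest run of higher genes outside the Hox clusters had 6 genes, from Pcbd2 to 5133401N09Rik, and included H2afy, Neurog1, Smad5 and Hnrnpa0. The longest lower run had 16 genes, from Tnfrsf1b to Gm13248, with a median log2 difference of -1.79 and 13 genes under 1 FPKM on day 4. Another run of 8 genes started at Zfp141, and one of 6 at Gm13151 (median -4.23). These 3 runs held 30 genes, 18 of which have C2H2 zinc finger (Zfp) names in current RefSeq annotation. Gm13247 had 44.5 FPKM on day 0 and 0.224 FPKM on day 4 (log2 difference -5.22), 2610305D13Rik 56.7 FPKM on day 0 and 1.87 FPKM on day 4 (log2 difference -4.33) and Zfp534 21.6 FPKM on day 0 and 0.147 FPKM on day 4 (log2 difference -4.30).

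**Figure D5:**
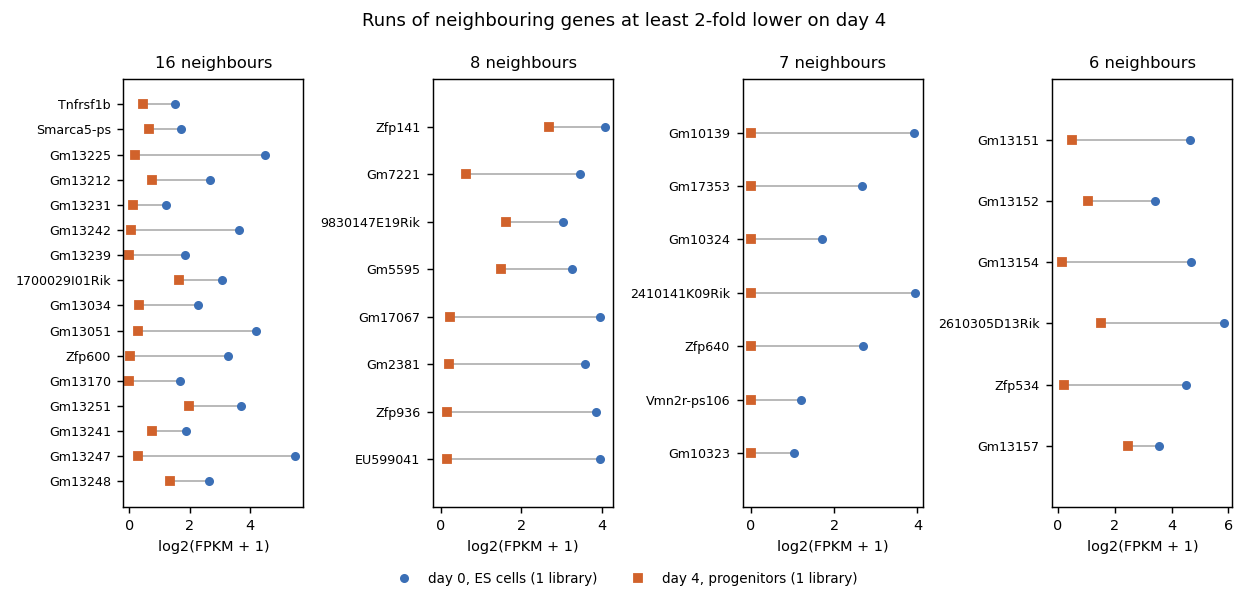
Levels as log2(FPKM + 1) of the genes in the 4 longest runs of measured neighbours that were all at least 2-fold lower on day 4, in genome order from top to bottom, day 0 in blue circles and day 4 in orange squares, 1 library each. In the run of 7 neighbours every gene is listed at 0 on day 4.

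Genes listed under a Zfp symbol lay close to all measured genes. Of 297 genes that carry a Zfp name, those in runs included, 54 (18.2%) were higher and 35 (11.8%) lower, with a median of 0.19 that became -0.0047 after rescaling (38 higher and 44 lower). By current names, which add genes listed under other symbols such as Gm13247, there were 318, of which 54 were higher and 52 lower. The lower share was then above the 11.9% over all genes, and 20 of the 52 lay in a run. Without those 20, 54 of 298 (18.1%) were higher and 32 (10.7%) lower. The runs were built from genes already called lower, so leaving them out could only reduce the lower share. These figures are therefore no check on the family. Clustered zinc finger genes are recent duplicates, so reads can be shared among neighbours and a run may count one signal more than once. The run of 7 genes from Gm10139 was listed at 0 throughout on day 4, and Gm10139 itself had 14.0 FPKM on day 0. Other lower runs held pluripotency or metabolic genes beside each other, such as Gdf3, Dppa3, Nanog and Slc2a3, or Itga6 next to Pdk1.

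Imprinted genes, expressed from one parental copy, counted 12 higher (34.3%) and 4 lower of 35. Ndn had 2.18 FPKM on day 0 and 35.8 FPKM on day 4 (log2 difference 3.53), Gnas 16.96 FPKM on day 0 and 175 FPKM on day 4 (log2 difference 3.29), Mest 13.1 FPKM on day 0 and 120.2 FPKM on day 4 (log2 difference 3.11) and Peg12 1.35 and 17.2 FPKM. Phlda2 (14.4 and 0.426 FPKM, -3.43 in log2) and H19 (7.90 and 0.764 FPKM, -2.34) were lower, along with Igf2 (3.69 and 1.17 FPKM), which lies next to H19. At the Dlk1 locus, Dlk1 was higher (0.258 and 4.94 FPKM) and the maternal noncoding Rian lower (36.8 and 12.5 FPKM), with Meg3 within 2-fold (6.25 FPKM on day 0, log2 difference 0.73).

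Noncoding RNA differed in both directions. Malat1, a nuclear RNA, had 889 FPKM on day 0 and 242 FPKM on day 4 (log2 difference -1.87), and Neat1, which builds paraspeckles, 3.22 FPKM on day 0 and 0.291 FPKM on day 4 (log2 difference -1.71). Miat had 0.0987 FPKM on day 0 and 18.3 FPKM on day 4 (log2 difference 4.14), Sox2ot, which overlaps Sox2, 0.663 FPKM on day 0 and 14.4 FPKM on day 4 (log2 difference 3.21) and Mir17hg, the host of the miR-17 cluster, 7.30 and 23.8 FPKM. Of 193 measured lncRNA genes 52 were higher and 34 lower. Rows named for microRNAs reached 1 FPKM in 3 cases, all listed at 0 on day 0: Mir708 had 122 FPKM on day 4, Mir1983 45.9 and Mir5115 20245. Libraries of long RNA are not made to measure mature microRNAs, and lengths this short make FPKM unstable.

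RNA-binding genes went both ways. Of 21 regulators of messenger RNA 6 were higher and 4 lower (median 0.06, -0.15 rescaled), and of 18 splicing regulators 6 were higher and 2 lower (4 and 3 rescaled). Msi1, a translational regulator of neural progenitors, had 2.15 FPKM on day 0 and 61.2 FPKM on day 4 (log2 difference 4.30), and the neuronal Elavl4 0.28 FPKM on day 0 and 5.74 FPKM on day 4 (log2 difference 2.40). Both forms of polypyrimidine tract protein were higher, Ptbp2 (5.398 and 46.0 FPKM, 2.88 in log2) and its known repressor Ptbp1 (53.9 and 119 FPKM, 1.13). Rbm47 (14.2 and 0.351 FPKM, -3.49), an epithelial splicing factor, was lower. Lin28a, which blocks let-7 maturation, was within 2-fold (65.1 and 41.0 FPKM), its paralogue Lin28b higher (7.18 and 21.0 FPKM), and Trim71 lower (59.2 and 21.4 FPKM). Of 27 SR and hnRNP genes 5 were higher, near the background, and 1 was lower.

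Genes of DNA replication and mitosis lay almost all within 2-fold, while regulators of G1 did not. Of 33 replication genes 1 was higher, Rfc3 (14.8 and 42.3 FPKM), and none lower, with a median of 0.11 that became -0.12 and 5 lower after rescaling. Of 27 mitosis genes 2 were higher, Ube2c (23.3 and 81.7 FPKM) being one, and none lower (median 0.15, -0.09 rescaled). In G1 control 13 of 33 were higher and 3 lower (9 and 5 rescaled). Ccnd2, the D cyclin of neural progenitors, had 3.02 FPKM on day 0 and 82.2 FPKM on day 4 (log2 difference 4.37), while Ccnd1 had 25.7 and 14.8 FPKM and Ccnd3 22.2 and 24.3 FPKM, both within 2-fold. Cdk4, the partner kinase, had 61.2 FPKM on day 0 and 265 FPKM on day 4 (log2 difference 2.10), and its target Rb1 1.79 FPKM on day 0 and 9.18 FPKM on day 4 (log2 difference 1.87). Of 8 E2f factors 6 were higher (3 after rescaling) and none lower. Among inhibitors and damage genes, Cdkn1c had 2.31 and 10.1 FPKM, Gadd45g 0.895 and 19.9 FPKM and Gadd45b 5.50 and 0.628 FPKM.

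Of 28 DNA repair genes 5 were lower (17.9%) and 2 higher (9 and 0 after rescaling). Msh6, of mismatch repair, had 168 FPKM on day 0 and 27.8 FPKM on day 4 (log2 difference -2.55), and Brca1 had 29.5 and 13.9 FPKM. Mcl1, an antiapoptotic protein, was lower (147 and 36.1 FPKM), and Pmaip1 (Noxa), its antagonist, had 9.64 FPKM on day 0 and 0.874 FPKM on day 4 (log2 difference -2.51). Trp53 lay within 2-fold (28.2 and 32.0 FPKM) and its regulator Mdm4 was lower (29.3 and 10.1 FPKM). Bak1, a pore-forming protein of apoptosis, was higher (4.47 and 12.03 FPKM). Telomere factors Tert (2.26 and 0.468 FPKM) and Rif1 (99.1 and 31.8 FPKM) were lower, together with Zscan4f (2.79 and 0.538 FPKM), one of a set of near-identical copies.

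Transcription factor families differed in direction. Homeobox genes outside the Hox clusters were higher in 24 of 32 cases (75.0%, median 2.08), and all 10 measured Irx, Meis and Pbx genes were higher (9 after rescaling). Among the 32, 19 were below 1 FPKM on day 0, so they entered through day 4 alone and could be called only higher. Meis1 and Meis2, cofactors of Hox proteins, had 0.469 and 32.9 FPKM and 0.107 and 22.97 FPKM. Markers of neighbouring progenitor domains were also present: Dbx1 of more dorsal interneuron progenitors reached 1.21 FPKM and Nkx2-9 of the most ventral ones 14.3. Tgif1, a Smad corepressor, was lower (37.2 and 10.5 FPKM, -1.74 in log2).

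Klf factors were the name family with the lowest median of the 119 with at least 10 measured members: 7 of 13 were lower and none higher, at a median of -1.65. Klf9 had 26.6 FPKM on day 0 and 0.368 FPKM on day 4 (log2 difference -4.33), Klf5 18.0 FPKM on day 0 and 0.198 FPKM on day 4 (log2 difference -3.99) and Klf2 16.5 FPKM on day 0 and 0.503 FPKM on day 4 (log2 difference -3.54). Sp8, from the related Sp genes, had 0.0911 FPKM on day 0 and 11.4 FPKM on day 4 (log2 difference 3.50). Pou3f2 and Pou3f3, neural class III Pou factors, had 0.0568 and 16.2 FPKM and 0.159 and 13.2 FPKM. Of 38 bHLH factors 22 were higher and 6 lower. Proneural Neurog1 had 0.0314 and 6.55 FPKM, and the ubiquitous partners Tcf12 and Tcf3 2.71 and 17.2 FPKM and 12.9 and 38.4 FPKM. Tcf15 (12.5 and 0.581 FPKM, -3.09 in log2) and Bhlhe40 (6.82 and 0.315 FPKM, -2.57) were lower. In the Sox family, Sox21 (0.485 and 18.8 FPKM, 3.74), Sox11 (16.8 and 47.9 FPKM, 1.46) and Sox12 (1.55 and 9.39 FPKM, 2.03) were higher, Sox15 (7.999 and 0.483 FPKM, -2.60) was lower, and Sox2, shared by both stages, had 113 and 57.6 FPKM, just within 2-fold before rescaling (-1.20 after). Of 21 nuclear receptors 6 were higher and 4 lower. Orphan receptor genes of ES cells, Esrrb (35.5 and 0.0179 FPKM) and Nr5a2 (7.47 and 0.0205 FPKM), were lower, and Nr2f6 (13.5 and 79.1 FPKM) and Nr2f2 (0.0816 and 4.20 FPKM) were higher. In the Fox family 6 of 16 genes were higher and 4 lower. Among the higher ones, Foxm1, a factor of dividing cells, had 2.26 and 16.2 FPKM, and Foxb1, of the neural tube, 0.0081 FPKM on day 0 and 14.9 FPKM on day 4 (log2 difference 3.98). The AP-1, ATF and CREB list had 4 higher and 5 lower genes of 24 (1 and 5 after rescaling), and its immediate early genes Fos (5.10 and 0.213 FPKM) and Junb (7.29 and 1.06 FPKM) were lower.

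Membrane transport and trafficking genes differed by subfamily. Of 175 solute carriers 23 were higher and 30 lower (median 0.11, -0.07 rescaled). The nucleoside transporter Slc29a1 (43.3 and 10.4 FPKM, -1.96 in log2) and the amino acid transporter Slc38a4 (57.4 and 7.06 FPKM, -2.86) were lower, and the zinc transporter Slc39a14 (10.1 and 58.3 FPKM, 2.41) was higher. Of the mitochondrial ADP/ATP carriers, Slc25a4 was higher (38.8 and 118 FPKM) and Slc25a5 lay within 2-fold (284 and 201 FPKM). The ABC family had 3 higher and 6 lower genes of 24, and its drug exporters Abcb1a (3.08 and 0.0988 FPKM) and Abcb1b (4.64 and 0.337 FPKM) were lower. Receptors of the Gpr and Adgr names were higher in 10 of 25 cases (40.0%), led by Gpr98 (3.20 and 45.7 FPKM, 3.47) and by Celsr2 (0.692 and 10.3 FPKM, 2.74), a planar polarity cadherin. Subunits of nicotinic acetylcholine receptors were detected, Chrna3 with 0 as listed and 3.53 FPKM, Chrna4 with 0.0378 and 1.64 FPKM and Chrna7 with 1.25 and 6.52 FPKM. Ednrb, the endothelin receptor of neural and crest precursors, had 0.0057 FPKM on day 0 and 23.03 FPKM on day 4 (log2 difference 4.58).

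Of Rab GTPases, which direct vesicles, 10 of 40 were higher and 1 lower (5 and 3 rescaled). Rab34, needed for cilia, had 2.59 FPKM on day 0 and 27.8 FPKM on day 4 (log2 difference 3.00). Ubiquitin genes stood similarly, 18 of 81 E2 enzymes and F-box proteins higher and 4 lower (9 and 4 rescaled), with Ube2d1 at 2.22 and 16.3 FPKM and Ube2e3 at 6.73 and 32.1 FPKM. Trim E3 ligases had 5 higher and 7 lower genes of 31. Trim25 (17.5 and 1.43 FPKM) and Trim6 (39.5 and 2.59 FPKM), of antiviral signalling, were lower.

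Among genes that reached 10 FPKM, several with a large difference belonged to none of these groups. Metrn, a secreted factor of glia and axons, had 4.90 FPKM on day 0 and 143 FPKM on day 4 (log2 difference 4.61). Tshz1, a zinc finger factor of trunk identity, had 0.182 FPKM on day 0 and 31.0 FPKM on day 4 (log2 difference 4.76), and Dtx4, a Notch-linked ubiquitin ligase, 0.186 FPKM on day 0 and 30.2 FPKM on day 4 (log2 difference 4.72). Apba2, an amyloid precursor adaptor, had 0.292 FPKM on day 0 and 30.9 FPKM on day 4 (log2 difference 4.63). On the other side were Sgk1, a kinase of the glucocorticoid and serum response, with 66.1 FPKM on day 0 and 0.586 FPKM on day 4 (log2 difference -5.40), Upp1, which breaks down uridine, with 79.9 FPKM on day 0 and 1.06 FPKM on day 4 (log2 difference -5.30), and Manba, a lysosomal mannosidase, with 53.9 FPKM on day 0 and 0.685 FPKM on day 4 (log2 difference -5.03).

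Days 5 and 6 are given beside these for orientation only, since those libraries came from the iCre line with 5 uM DAPT added from day 4, a Notch pathway inhibitor, and no comparison was made. Summed glycolysis genes had 1474 and 1639 FPKM on these 2 days. Slc2a3 had 19.5 and 56.0 FPKM, Zfp57 33.4 and 47.8, Ccnd2 12.2 and 0.772, and Msi1 25.3 and 11.1. Rarb had 17.5 and 21.4 FPKM and Cyp26a1 5.04 and 1.93. Gm13247, from the longest lower run, had 0.0694 and 0.101.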

How the data were processed

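Levels were deposited by the authors as FPKM per gene for each day; the program and annotation behind them and the read depth are not given in the sources used here. Per the submitters' processing notes, the series used STAR, Bowtie 0.12.7, HOMER 4.7.2, MACS and the mm9 build, with no role stated for each. A difference is log2(FPKM + 1) on day 4 minus day 0, over genes that reached 1 FPKM on either day, and a gene was called at 2-fold or more. With 1 library per day there was no test, SD or p-value, and FPKM gives no counting interval. The calculation was tested on simulated data and run in Python 3.11.15 with pandas 2.3.3, numpy 2.4.6 and matplotlib 3.10.9.

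The members and gene lists were chosen with earlier results of these data known. Named genes were, per list, the 4 largest called differences with at least 1 from each direction, plus the most abundant gene; the 15 largest each way among genes at 10 FPKM or more; and the 3 largest per name family. Symbols with more than 1 row were not named. Groups by role, added motifs, printed promoters and further named members were chosen after values were seen. Symbols and promoters came from RefSeq (GRCm38.p6), which matched 98.6% of measured genes; promoter entries covered 78.2% of higher and 77.4% of lower protein-coding genes, under 80%, so a motif check over all called genes was void. Alternatives were rescaling to a common median ratio or by housekeeping genes, pseudocounts of 0.1 and 5 FPKM, other minimums, a 4-fold call, and leaving out zeros or repeated symbols.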

Additional observations from a re-analysis of the deposited data

How the results depend on the processing

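The share of higher genes among all that were called, 61.9% as reported, was 48.6% after rescaling to a common median ratio, 53.5% after rescaling by housekeeping genes, 60.1% with a pseudocount of 5, 64.4% with a minimum of 5 FPKM, 68.4% with a minimum of 1 FPKM in both libraries and 63.8% without genes listed at 0. The count of higher genes (2219) was 817 with a pseudocount of 5, 1444 with a minimum of 1 FPKM in both libraries and 492 at 4-fold. The count of lower genes (1366) was 542, 667 and 426 under the same settings and 858 with a minimum of 5 FPKM; these settings test fewer genes or shrink or tighten the fold by construction. List medians had the opposite sign in 17 lists after rescaling to the median ratio, in 10 after rescaling by housekeeping genes, and in 11 under each of the 3 other minimums (26 lists in all). Of the lists with a median of at least 1 in size, 5 did so. Classical cadherins had -2.13 with a minimum of 5 FPKM and -0.13 with 1 FPKM in both libraries; with the latter the Pou family had -0.21 and primed epiblast markers 0.59. With no minimum, endoderm markers had -0.21 and mesoderm markers 0.0065. The cause was not tested. Of 747 named genes, 681 kept direction and side of the 2-fold threshold after rescaling to the median ratio, 48 fell short of it, 14 passed it and 4 within it had the opposite sign; with a pseudocount of 5, 503 kept them and 244 fell short. No paired analysis was possible because each day has 1 library. Depth is not given, so precision at low FPKM is unknown.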
